A study of Rattus norvegicus with 8 samples.

Results

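The apolipoproteins and the lipoprotein assembly factor Mttp were followed in the livers of rats that had drunk hydrogen water, through 10 genes: Apoa1, Apoa2, Apoa4, Apoa5, Apob, Apoc1, Apoc3, Apoe, Apoh and Mttp. Each probe set, a group of short probes directed at a transcript, was taken if the platform annotation gave it exactly one of these symbols. The rule found 12 probe sets of the 31042 that are not controls, for 10 of 14217 named genes, and used no measured value. Apob and Apoe have 2 probe sets each and the other 8 genes have 1. Liver RNA came from male rats of the Sprague-Dawley strain, which is outbred, at an age of 8 weeks. Control rats drank sterilized distilled water for 4 weeks, and the others drank hydrogen-saturated water with 0.7 mM dissolved hydrogen over the same time. The rats entered the study at 4 weeks of age, both groups ate 1 commercial diet freely, and the labels name no drug or genetic change. The study kept 8 rats per group, and 4 arrays per group were analysed here. Since no label ties an array to a rat or speaks of pooling, p-values measure only the spread between arrays, which may be technical.

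Apolipoproteins are the protein part of lipoproteins, the particles that carry fat and cholesterol in blood. In the liver, Mttp, the microsomal triglyceride transfer protein, loads lipid onto Apob as it enters the endoplasmic reticulum, and the product leaves the cell as very low density lipoprotein. Apoa1 and Apoa2 form the scaffold of high density lipoprotein. The small exchangeable apolipoproteins move between particles and set how fast lipoprotein lipase removes their fat, which Apoa5 promotes and Apoc3 slows, while Apoe is the ligand that returns remnants to the liver. These transcripts are among the most abundant of the hepatocyte, so their array signals can lie close to the ceiling of the assay.

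Before normalization the 2% trimmed mean signal of an array was 115 ± 18.7 (SD, n = 4) for controls against 91.5 ± 10.4 (SD, n = 4) for hydrogen water (p = 0.114 in a two-sided exact permutation test). For Gapdh, whose 3′ to 5′ signal ratio rises as RNA degrades, the log2 ratio was 0.22 ± 0.10 (SD, n = 4) against 0.38 ± 0.08 (SD, n = 4), with p = 0.0571 in the same exact test. The log2 ratio for beta-actin was 1.58, 1.65, 1.58 and 1.59 in control arrays 1 to 4. With hydrogen water it was 1.56, 1.67, 1.66 and 1.66, so the groups overlapped. Probe sets for 5 of 6 hepatocyte markers summed to 53499 to 61270.5 in controls and 50184 to 53384 with hydrogen water. Intestinal epithelium, the other main source of Apob, Apoa4 and Mttp, had probe sets for 3 of 5 markers, 2 of them below the general median, and their sum ran from 35.2 to 105 in controls and from 45.0 to 74.0 with hydrogen water. Kupffer cells, which also make Apoe, had probe sets for 5 of 6 markers, with sums of 2611 to 3583 in controls and 2180.3 to 3315 with hydrogen water. In none of these 3 lists did a tested marker pass the test described next. The part of array brightness, RNA integrity or cell makeup in the values below was not tested, and in whole-liver RNA fewer cells of a type and less RNA per cell cannot be told apart.

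No member probe set passed. After quantile normalization, which gives every array the same distribution of signals, groups were compared on the log2(signal + 2.05) scale with limma, a linear model fitted over all 15521 probe sets above the filter. All 12 member probe sets lay above the filter, which kept mean log2 signals of at least 4.42. With an adjusted p (Benjamini-Hochberg) under 0.05, 0 of the 12 were called, against 0.825% of all tested probe sets. An unadjusted p under 0.05 was found at 1, that of Apoa5, against 12.5% of all tested probe sets. Changes ran from −0.26 to 0.28 on the log2 scale, with 7 probe sets below 0 and 5 above, and a median of −0.01 beside −0.001 for all tested. The estimates for the 10 bright probe sets, 1 for each gene, ranged from −0.21 to 0.12, which is 13.5% downward and 8.36% upward. Their 95% intervals reached further, to −24.6% for Apoa5 and 24.5% for Apoa4. The normalized values overlapped between groups at all 12 probe sets, where 7.48% of all tested probe sets showed no overlap.

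**Figure D1:**
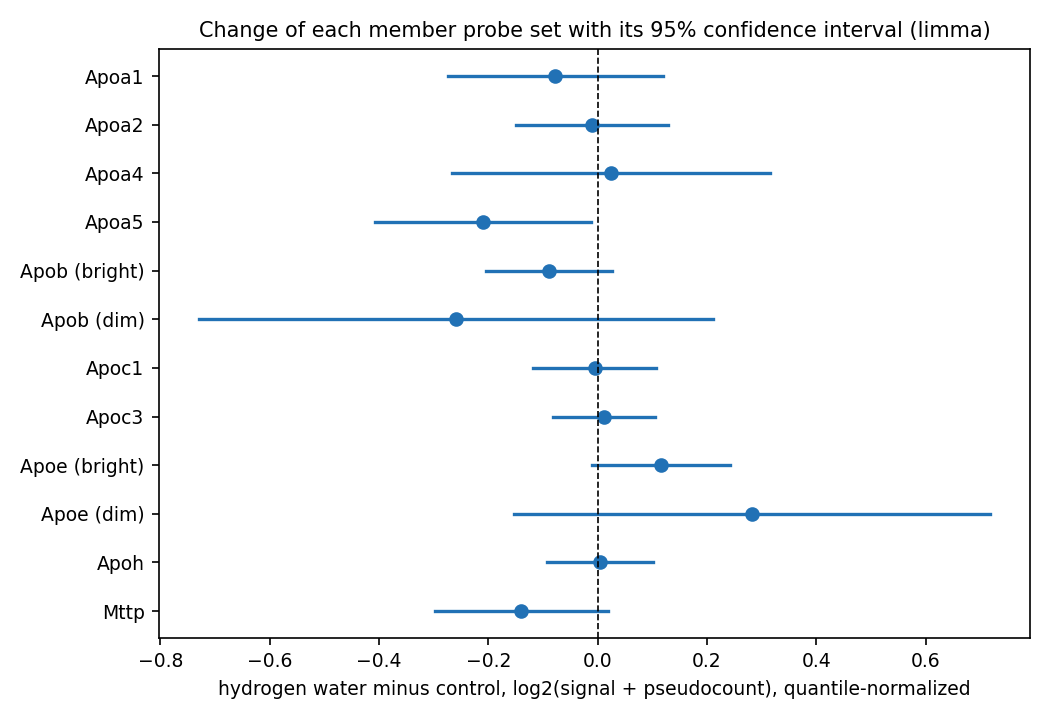
Hydrogen water minus control for each member probe set on the log2(signal + pseudocount) scale after quantile normalization (points) with the 95% confidence interval from limma (bars, 4 arrays per group). The interval of Apoa5 alone lies wholly below 0, from −0.41 to −0.01, and the other 11 include 0.

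Neither gene of the assembly step passed. Apob is the structural protein of very low density lipoprotein, and its brighter probe set read 10234, 8126, 10281 and 9662 in control arrays 1 to 4. It read 6843, 8247, 7224 and 8113 in hydrogen water arrays 1 to 4. In these deposited signals the groups overlapped through control array 2 and hydrogen water array 2. After normalization Apob stood at a log2 signal of 13.12 ± 0.03 (SD, n = 4) for controls against 13.03 ± 0.08 (SD, n = 4) for hydrogen water, and 3 of 4 hydrogen water arrays lay below every control. The difference was −0.09 ± 0.05 (SE; 95% interval −0.20 to 0.03; limma adjusted p = 0.551).

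A second Apob probe set was far dimmer, at 140.3, 44.2, 95.4 and 96.7 in controls and 53.7, 56.8, 51.7 and 64.0 with hydrogen water. Its controls were widely spread, and all 4 hydrogen water arrays lay within their range. Normalized log2 signals came to 6.32 ± 0.49 (SD, n = 4) for controls against 6.07 ± 0.09 (SD, n = 4) for hydrogen water. The difference was −0.26 ± 0.21 (SE; limma adjusted p = 0.705), with a wide interval of −0.73 to 0.21. It was −0.11 without control array 1, −0.17 without control array 4 and −0.48 without control array 2 (limma adjusted p of 0.894, 0.866 and 0.248). The change was higher by 0.17 on the log2 scale at the brighter than at the dimmer probe set, which was not beyond the spread between arrays (exact two-sided permutation test over 70 arrangements, p = 0.514).

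Mttp transfers the lipid that makes Apob secretable. Its deposited signals were 1987, 1306, 1870.0 and 1406 in controls, where arrays 1 and 3 stood above the other two. With hydrogen water they were 1068, 1307, 1091 and 1332, and arrays 2 and 4 reached into the control range. After normalization 3 of 4 hydrogen water arrays lay below every control, with 10.53 ± 0.10 (SD, n = 4) for controls against 10.39 ± 0.06 (SD, n = 4) for hydrogen water. The difference was −0.14 ± 0.07 (SE; 95% interval −0.30 to 0.02; limma adjusted p = 0.474), which is −9.22% on the linear scale with an interval of −18.7% to 1.31%. Without control array 1, which read highest after normalization, it was −0.09 (limma adjusted p = 0.656).

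Among the scaffold proteins of high density lipoprotein, Apoa1, which also activates the cholesterol-esterifying enzyme of plasma, read 6992, 7620.0, 8977 and 7764 in control arrays 1 to 4. It read 6300.2, 6586, 6244 and 6295 with hydrogen water, a narrow band below all 4 controls. That gap in deposited signals closed after normalization, at 12.83 ± 0.19 (SD, n = 4) for controls against 12.75 ± 0.09 (SD, n = 4) for hydrogen water, and control array 1, the second brightest array by trimmed mean but the lowest control for Apoa1, came to lie below every hydrogen water array. The difference was −0.08 ± 0.09 (SE; 95% interval −0.27 to 0.12; limma adjusted p = 0.803). It was −0.17 without control array 1 and −0.02 without control array 2, and −0.24 with array brightness as a covariate (limma adjusted p of 0.322, 0.967 and 0.459).

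Apoa2, the second scaffold protein, read 9027, 6194, 8699 and 8261 in controls and 6059, 7238, 6335 and 7772 with hydrogen water. Control array 2 was low and the groups overlapped. Normalized log2 signals were 12.87 ± 0.10 (SD, n = 4) for controls against 12.86 ± 0.08 (SD, n = 4) for hydrogen water. The difference was −0.01 ± 0.06 (SE; 95% interval −0.15 to 0.13; limma adjusted p = 0.978). The interval leaves room for a change of about −9.89% to 9.38%.

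Apoa4, an exchangeable apolipoprotein made mainly by the intestine and, in rodents, also by the liver, read 4264, 4106, 3809 and 4436 in controls and 2875, 4069, 3825 and 3494 with hydrogen water. Hydrogen water arrays 1 and 4 were the lowest, and arrays 2 and 3 lay within the control range. Normalized values were 11.90 ± 0.28 (SD, n = 4) for controls against 11.93 ± 0.19 (SD, n = 4) for hydrogen water, and the difference was 0.02 ± 0.13 (SE; 95% interval −0.27 to 0.32; limma adjusted p = 0.973).

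The regulators of triglyceride removal gave the lowest value among the bright members. Apoa5, a liver-made activator of lipoprotein lipase action, read 5623, 4808, 5599 and 5096 in controls. With hydrogen water it read 3569, 4661, 3147 and 4134, and all 4 arrays lay below the lowest control. After normalization hydrogen water array 2 alone rejoined the controls, at 12.25 ± 0.08 (SD, n = 4) for controls against 12.04 ± 0.19 (SD, n = 4) for hydrogen water. The difference was −0.21 ± 0.09 (SE; 95% interval −0.41 to −0.01; unadjusted p = 0.0396; limma adjusted p = 0.368) and did not pass. On the linear scale that is −13.5%, with an interval of −24.6% to −0.83%. Without hydrogen water array 3 the log2 difference was −0.13 (limma adjusted p = 0.602), and without hydrogen water array 2 it was −0.29 (limma adjusted p = 0.133).

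To show the DNA in front of the member furthest below 0 among the bright probe sets, its upstream sequence was read from RefSeq, whose table here held 5 of the 10 members, Apoa4, Apoa5, Apoc1, Apoe and Apoh. Shown here are the 250 bases before the start of Apoa4 and before the first listed start of Apoa5, neighbouring genes with changes of 0.02 and −0.21, both on the plus strand of GRCr8 from RefSeq and written 5′ to 3′. Apoa4 lies at chr8:55435529-55435778 and Apoa5 at chr8:55457621-55457870. Capitals mark the motifs AGGTCA, the core bound by many nuclear receptors, and TATAAA, the TATA box, searched on both strands, with no overlap between their matches.
Apoa4: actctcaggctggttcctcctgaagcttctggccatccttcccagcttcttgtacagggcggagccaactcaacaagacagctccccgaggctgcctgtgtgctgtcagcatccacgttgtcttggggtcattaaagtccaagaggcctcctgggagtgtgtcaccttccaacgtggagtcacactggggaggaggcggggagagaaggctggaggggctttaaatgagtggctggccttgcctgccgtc
Apoa5: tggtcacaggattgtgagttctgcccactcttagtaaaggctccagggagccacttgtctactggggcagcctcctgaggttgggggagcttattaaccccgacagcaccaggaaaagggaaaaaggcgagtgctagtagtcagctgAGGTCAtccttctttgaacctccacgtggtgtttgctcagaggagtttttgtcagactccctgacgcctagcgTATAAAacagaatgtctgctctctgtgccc
Apoa5 holds AGGTCA beginning 103 bases and TATAAA beginning 30 bases before that start, and Apoa4 holds neither in this window. AGGTCA is not in the window of the second listed Apoa5 start. AGGTCA occurs in 14.1% and TATAAA in 12.9% of the 33469 rat upstream windows of this length. These are matches of letters only.

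Apoc3, the inhibitor of lipoprotein lipase and of remnant uptake, ranked highest in signal. It read 11652, 9884, 12075 and 10734 in controls and 9344, 9911, 9410.2 and 9634 with hydrogen water, overlapping only at control array 2 and hydrogen water array 2. It ranked between 6 and 10 among all probe sets on every array. On 4 of the 8 arrays, 2 in each group, it ranked exactly 10 and so received one normalized value, 13.32, by the construction of quantile normalization. Group values were 13.34 ± 0.02 (SD, n = 4) for controls against 13.35 ± 0.04 (SD, n = 4) for hydrogen water. The difference was 0.01 ± 0.04 (SE; 95% interval −0.08 to 0.10; limma adjusted p = 0.957).

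Apoc1, which restrains remnant uptake and lipid transfer between particles, read 9479, 7169, 9360.4 and 8236 in controls and 6917, 7183, 7166 and 8028 with hydrogen water. Its groups overlapped. Normalized log2 signals stood at 12.96 ± 0.05 (SD, n = 4) for controls against 12.96 ± 0.07 (SD, n = 4) for hydrogen water, and the difference was −0.01 ± 0.05 (SE; 95% interval −0.12 to 0.11; limma adjusted p = 0.984).

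Apoe, the receptor ligand of remnants, had the highest normalized difference of the bright members. Its brighter probe set read 8373, 8006, 8767 and 8473 in controls and 7501, 7968, 7686 and 7903 with hydrogen water, so that in deposited signals all 4 hydrogen water arrays lay below every control. After normalization the order turned, at 12.92 ± 0.11 (SD, n = 4) for controls against 13.04 ± 0.02 (SD, n = 4) for hydrogen water, with 2 of 4 hydrogen water arrays above every control. The difference was 0.12 ± 0.06 (SE; 95% interval −0.01 to 0.24; limma adjusted p = 0.45). The dimmer probe set, annotated from the same sequence record, read 31.3, 15.6, 31.2 and 19.8 in controls and 19.7, 22.9, 22.5 and 29.8 with hydrogen water, near the median of all values (20.5), so it cannot be set apart from background. It gave 0.28 ± 0.20 (SE; limma adjusted p = 0.633). The change at the brighter probe set minus that at the dimmer was −0.17 on the log2 scale (exact two-sided permutation test, p = 0.4). Over the 8 arrays the normalized signals of the 2 Apoe probe sets did not rise and fall together (Pearson's r of −0.15). For deviations from the group means r was −0.945 after normalization and 0.73 for log2 deposited signals, so its sign depended on normalization.

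Apoh, or beta-2-glycoprotein I, a plasma protein that binds anionic phospholipid and is named as an apolipoprotein although it serves mostly in coagulation, gave the difference nearest to 0. It read 9175, 7426, 9434 and 8473 in controls and 6779, 7724, 7463 and 7621 with hydrogen water, overlapping at control array 2. Normalized values were 12.97 ± 0.01 (SD, n = 4) for controls against 12.97 ± 0.04 (SD, n = 4) for hydrogen water. The difference was 0.00 ± 0.04 (SE; 95% interval −0.09 to 0.10; limma adjusted p = 0.987).

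**Figure D2:**
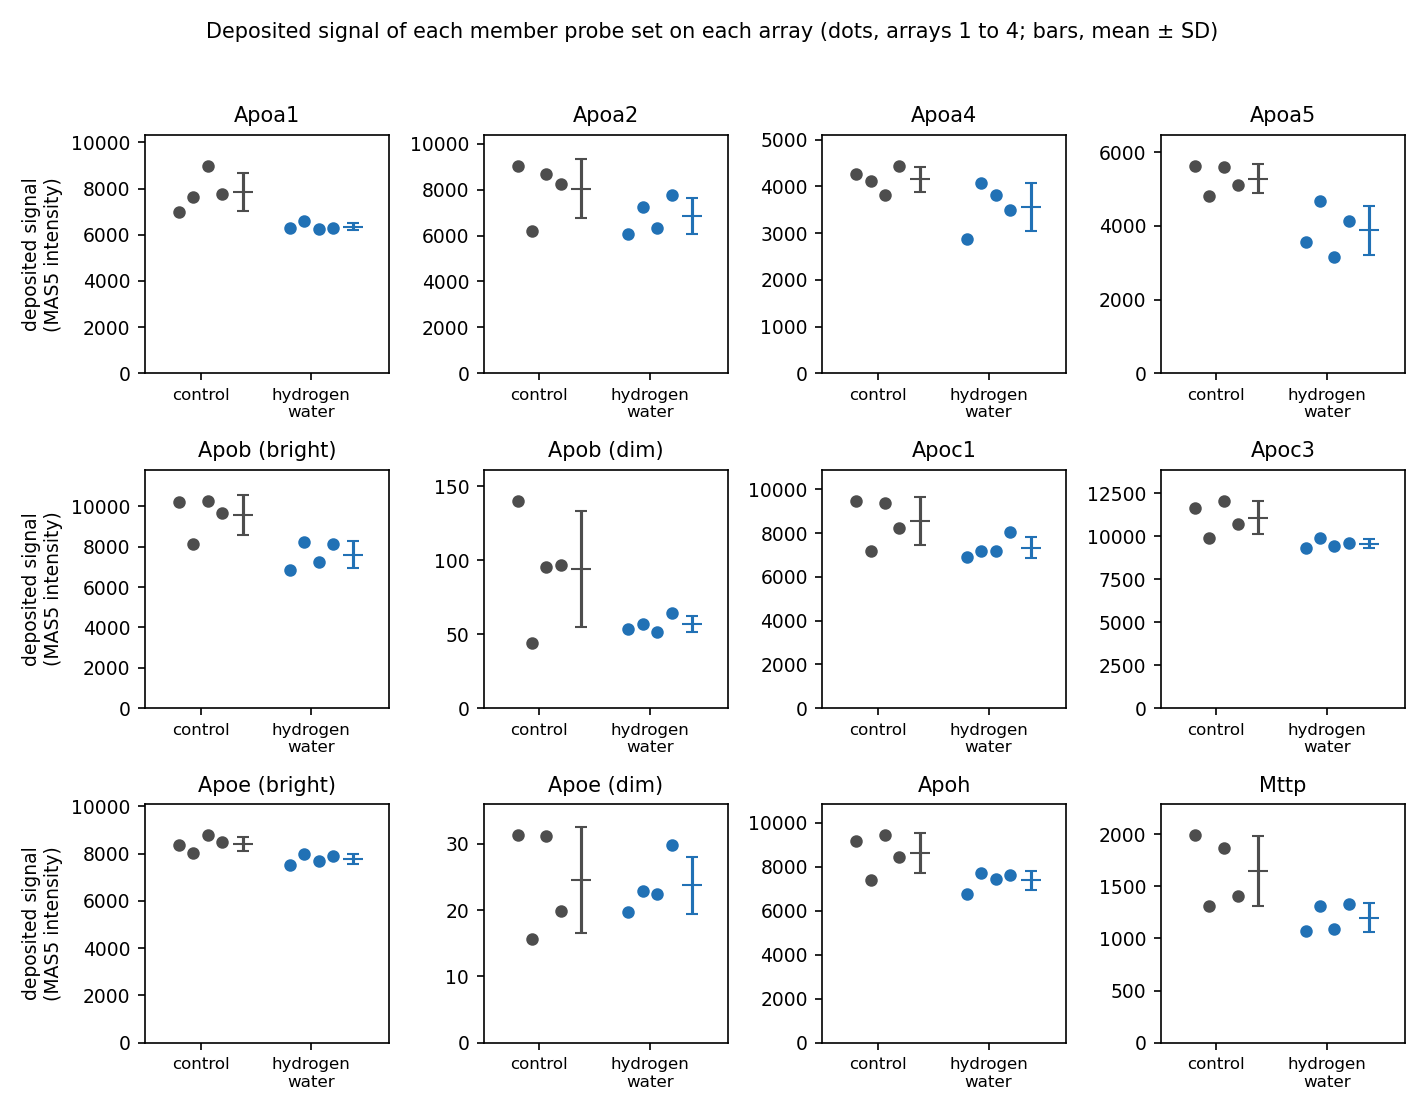
Deposited signal (vertical axes, linear from 0, each panel on its own scale) of the 12 member probe sets on control arrays 1 to 4 and hydrogen water arrays 1 to 4 (dots, left to right), with mean ± SD beside them. Hydrogen water means are lower at all panels, and the groups are apart at Apoa1, Apoa5 and the brighter probe set of Apoe.

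Before normalization, then, the mean deposited signal was lower with hydrogen water at all 12 member probe sets, at 60.1% to 97.0% of the control mean. The groups did not overlap at 3 of the 12, against 14.9% of all tested probe sets. On log2 deposited signals 11 of the 12 were lower with hydrogen water, all but the dimmer probe set of Apoe, as were 14226 of all 15521 tested probe sets, whose median difference was −0.34. Of the bright members, Apoa5 at −0.46 and Mttp at −0.44 lay below that median, and the other 8 lay above it, between −0.33 for Apob and −0.11 for Apoe. Among brighter tested probe sets the median was nearer to 0, at −0.21 for the 50 brightest and −0.24 for the next 200. It was −0.28 for the 750 after those, so lying above −0.34 does not set a bright member apart. Without normalization 3.25% of all tested probe sets were called and 0 of the 12.

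Apoa5, Mttp and the dimmer probe set of Apob kept one sign under every setting tried. Apoa5 ran from −0.46 without normalization to −0.07 with scaling by spike-in transcripts, and had an unadjusted p under 0.05 in 10 of 22 settings. Mttp ran from −0.44 to −0.05 and had one in 1 of 22, and the dimmer Apob probe set ran from −0.61 without normalization to −0.0004 with array brightness as a covariate. Apoe, at its brighter probe set, was at −0.11 without normalization and otherwise above 0, from 0.0089 with the brightness covariate to 0.28 with spike-in scaling. Its unadjusted p was under 0.05 with spike-in scaling and without control array 2. The sign depended on the setting at 9 probe sets, that of Apoe among them. Over 260 fits of a member probe set under 22 other settings, 0 passed, and the lowest adjusted p was 0.0769, that of Apoa5 without normalization. Normalization moved the median of all tested probe sets from −0.33 (none) to −0.07 (median centring), −0.01 (trimmed mean) and 0.05 (spike-ins). Under all 6 normalizations the Apoe probe sets stood highest, and Apoa5, Mttp and the dimmer Apob probe set lowest. Between no normalization, median centring, trimmed mean and spike-in scaling this order was nearly fixed by construction. These settings differ only by 1 factor per array, so only quantile normalization and cyclic loess could change it.

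**Figure D3:**
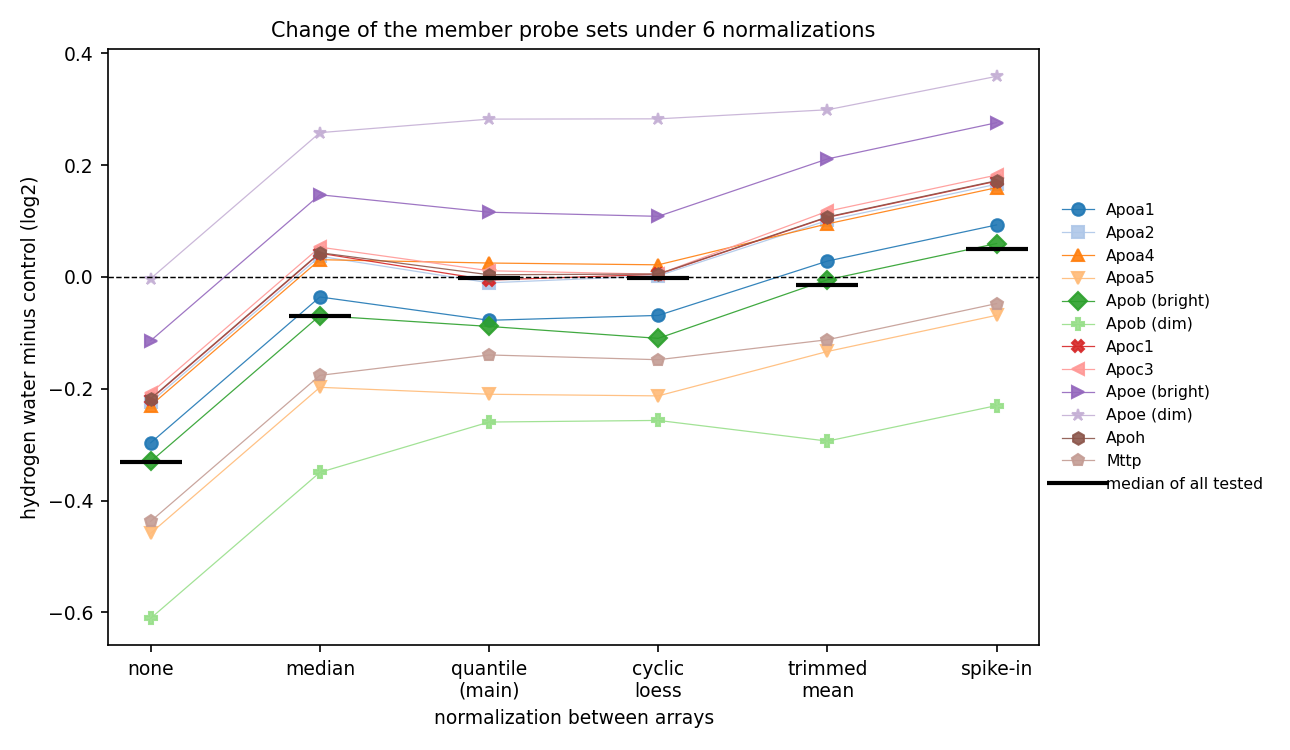
Hydrogen water minus control (log2) for each member probe set under 6 normalizations between arrays (horizontal axis), with the median of all tested probe sets as a black bar. The values shift together from the unnormalized arrays to spike-in scaling, where 9 of 12 lie above 0.

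The brightest signals followed the brightness of their array less than other signals did. For each probe set the deposited log2 signal was set against the log2 trimmed mean of its array within groups, so that a value of 1 means that the signal scaled fully with the array. The median over all tested probe sets was 1.00. It was 0.52 for the 50 brightest, 0.76 for the next 200 and 0.94 for the 750 after those. Among the 50 brightest lay 7 member probe sets, and Apoa4 and Apoa5 lay among the next 200. Leaving out any 1 array kept the value of the 50 brightest between 0.41 and 0.57. With array brightness taken as the median signal or the mean of spike-in transcripts it was 0.59 and 0.49, beside 1.13 and 0.78 for all tested. These ranks are of probe set signals, not of transcript levels. The deposited values carry no flag for saturated spots, so saturation itself was not tested.

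Members differed in this response. Apoa2 at 0.93 and Mttp, ranked 773 by mean signal, at 1.16 scaled with the array. Apoc1 at 0.68, Apoa5 at 0.67, the brighter Apob probe set at 0.65, Apoh at 0.56 and Apoc3 at 0.42 did so in part. The brighter Apoe probe set at 0.19, Apoa4 at 0.13 and Apoa1 at 0.11 scarcely moved with it. The dimmer probe sets of Apob and Apoe, at 1.84 and 1.85, moved more than the array did. For Apoa1 and Apoa4 single arrays mattered, with −0.14 (without control array 3) to 0.34 (without control array 1) for Apoa1 and −0.19 (without hydrogen water array 1) to 0.34 (without control array 3) for Apoa4. The brighter Apoe probe set held between 0.14 and 0.24. Of the 50 brightest probe sets 0 were called, of the next 200 it was 2 and of the 750 after those 9, against 0.825% of all tested probe sets. At that share a count of 0 among 50 does not set the brightest probe sets apart. The median SD of the 50 brightest within groups after normalization was 0.05 on the log2 scale, against 0.22 for all tested probe sets. Fga, the fibrinogen alpha chain, had 1 probe set of each kind: the brighter differed by −0.08, and the less bright, at a mean log2 signal of 11.43, fell by 0.45 (SE 0.07, limma adjusted p = 0.0182). That call was lost when control array 2, control array 4 or hydrogen water array 1 was left out, at changes of −0.45, −0.43 and −0.45 (limma adjusted p of 0.0561, 0.0652 and 0.0650). It was also lost with no trend in the prior, the brightness covariate and spike-in scaling, at −0.45, −0.43 and −0.33 (limma adjusted p of 0.0999, 0.160 and 0.276). Gc, another bright secreted protein of the liver, went the other way. Its brighter probe set differed by −0.08 and its less bright one by 0.15 (limma adjusted p of 0.543 and 0.737). The part of the brightness response in the values of Fga and Gc was not tested.

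**Figure D4:**
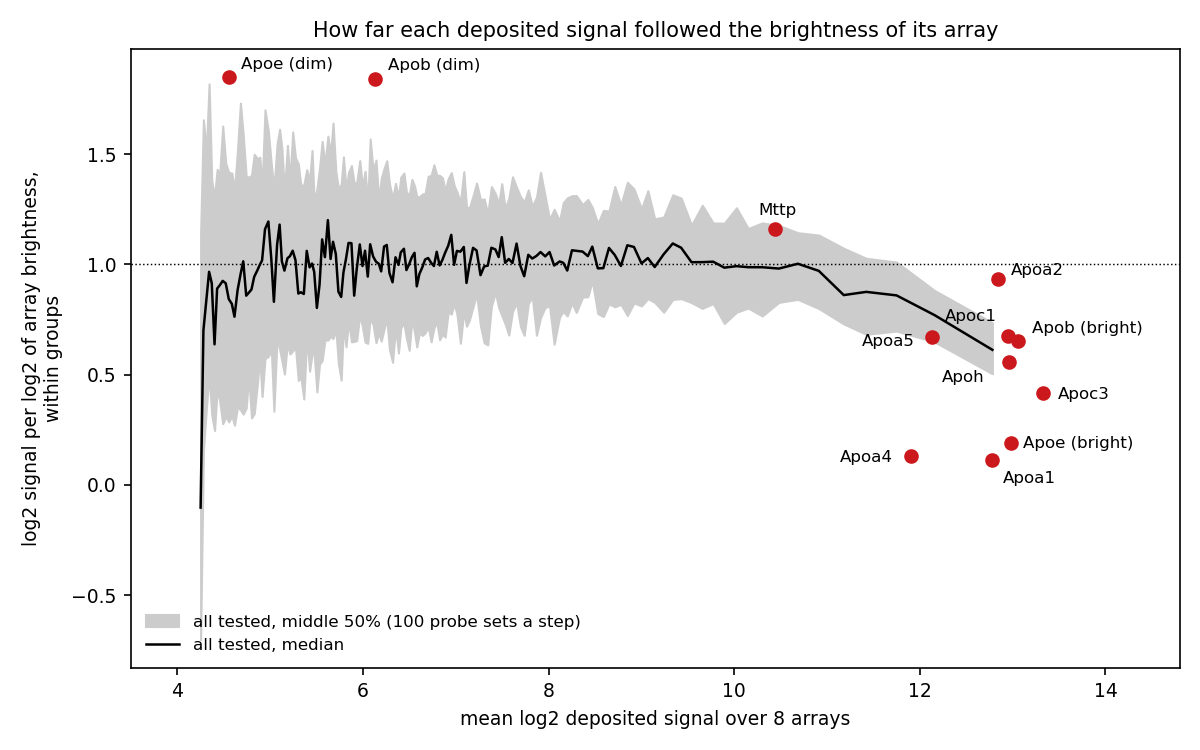
Response of the deposited log2 signal to the log2 brightness of the array within groups (vertical axis) against mean log2 deposited signal (horizontal axis), as the median (black line) and middle 50% (grey) of successive sets of 100 tested probe sets, with member probe sets as red points. The line is near 1 over most of the range and drops among the brightest signals, where Apoe, Apoa4 and Apoa1 lie lowest.

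Several members are neighbours in the genome. In the RefSeq gene table of rat assembly GRCr8, Apoa1, Apoc3, Apoa4 and Apoa5 follow each other with no other protein-coding gene between them. Their normalized changes in that order were −0.08, 0.01, 0.02 and −0.21. Apoc4, Apoc1 and Apoe form a second such row. There the changes were 0.06 ± 0.09 (SE) for Apoc4, −0.01 for Apoc1 and 0.12 for the brighter probe set of Apoe. None of these passed.

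Other genes of the pathway were counted from lists by role, again against 0.825% called over all tested probe sets. Of 10 further apolipoproteins and their companions on lipoproteins, 7 were tested through 8 probe sets and 0 passed, with a median of 0.00 and a range of −0.27 to 0.07. Apoc2, the cofactor that activates lipoprotein lipase, differed by 0.01 (SE 0.06; limma adjusted p = 0.976). The paraoxonase Pon3, an esterase carried by high density lipoprotein, differed by −0.06 ± 0.07 (SE; limma adjusted p = 0.805). At its dimmer probe set, clusterin (Clu), a secreted chaperone also called apolipoprotein J, differed by −0.27 ± 0.17 (SE; limma adjusted p = 0.588). Its far brighter probe set differed by 0.02 (SE 0.06; limma adjusted p = 0.946).

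Partners in assembly and secretion gave 0 calls among 19 probe sets for 14 of 17 genes. An unadjusted p under 0.05 was found at 3, all above 0, which is 15.8% against 12.5% of all tested probe sets. The list had a median of 0.10. Dgat2, which makes the triglyceride that loads the particle, was higher after normalization at both probe sets, by 0.24 ± 0.08 (SE; limma adjusted p = 0.212) and by 0.24 (limma adjusted p = 0.326). On log2 deposited signals the 2 differed by −0.03 and −0.05. Sort1, the sorting receptor sortilin that binds Apob in the secretory pathway, differed by 0.39 ± 0.14 (SE; limma adjusted p = 0.258), and the coat GTPase Sar1a by −0.19 ± 0.09 (SE; limma adjusted p = 0.429) and, at a second probe set, −0.03 (limma adjusted p = 0.935). P4hb, the protein disulfide isomerase that forms the second subunit of the transfer complex with Mttp, differed by −0.11 (limma adjusted p = 0.545).

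Plasma enzymes and their regulators gave 0 calls among 6 probe sets for 6 of 10 genes, with a median of 0.02. An unadjusted p under 0.05 was found at 1, which is 16.7% against 12.5% of all tested probe sets. That one was lipoprotein lipase, Lpl, a gene at low level in adult liver, at 0.49 ± 0.18 (SE; limma adjusted p = 0.268). Hepatic lipase, Lipc, differed by −0.11 ± 0.07 and Angptl4, an inhibitor of lipoprotein lipase, by −0.31 ± 0.28 (SE, limma adjusted p-values of 0.589 and 0.729). Receptors and lipid exporters gave 0 calls among 13 probe sets for 6 of 10 genes, 0 with an unadjusted p under 0.05, and a median of −0.01. Abca1, which exports cholesterol to Apoa1, differed by 0.55 ± 0.29 at 1 of its 4 probe sets, the proteoglycan Sdc1 by −0.19 ± 0.14 and the endocytic receptor Lrp1 by 0.10 ± 0.09 (SE, limma adjusted p-values of 0.504, 0.665 and 0.758). The Abca1 probe set just given is its dimmest. Its others, brightest first, differed by 0.11, 0.47 and −0.01 (limma adjusted p-values of 0.687, 0.712 and 0.993). Second probe sets of Sdc1 and Lrp1 differed by −0.03 and −0.14 (limma adjusted p-values of 0.962 and 0.888).

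Transcription factors that act on these genes gave the only calls of the pathway lists. Of 31 probe sets for 19 of 21 genes, 3 passed, all higher, and 14 had an unadjusted p under 0.05, 9 higher and 5 lower, with a list median of 0.08. That is 45.2%, against 12.5% of all tested probe sets. The 14 include repeat probe sets of the same genes, and the list was chosen with earlier results of these data known. The nuclear receptor and clock repressor Nr1d1, reported to restrain Apoc3 transcription, rose by 1.99 ± 0.24 (SE; limma adjusted p = 0.00555). Its controls stood at a normalized log2 signal of 4.04 ± 0.44 (SD, n = 4), below the filter of 4.42. Hydrogen water arrays stood at 6.03 ± 0.27 (SD, n = 4), so the probe set passed the filter only through them. The control level cannot be set apart from background. The rise was 2.14 with no pseudocount and 1.57 with a pseudocount of 50% of the median. Foxo1, an insulin-restrained factor that can act on Mttp and Apoc3, rose by 1.10 ± 0.21 (SE; limma adjusted p = 0.0354) at 1 of its 2 probe sets, while the dimmer differed by 0.39 (limma adjusted p = 0.619). Nr0b2, a corepressor that includes Hnf4a among its targets, rose by 1.46 ± 0.29 (SE; limma adjusted p = 0.0483). These 3 were known to pass when the list was written. When 1 array was left out, Foxo1 passed only without control array 3 or hydrogen water array 2 (limma adjusted p of 0.0035 and 0.0403, and 0.0679 to 0.110 otherwise). Nr0b2 passed only without control array 3 (limma adjusted p of 0.00649, and 0.0744 to 0.126 otherwise). Among the other settings Foxo1 was lost with no normalization, no trend in the prior and the brightness covariate (changes of at least 0.75, limma adjusted p of 0.0780, 0.0842 and 0.161). Foxo1 was not called with gene means either, where 0 genes of the pathway lists passed. Nr0b2 was lost with no normalization, median centring, no filter, the 75% filter, no trend and gene means, at changes of 1.13 to 1.46 (limma adjusted p of 0.0515 to 0.101). Nr1d1 missed the threshold only with the brightness covariate, among the 20 settings in which it was fitted, at a change of 2.14 (limma adjusted p = 0.0646). The coactivator Ppargc1b differed by 0.90 ± 0.20, the receptor Nr5a2, above 0 at all 3 of its probe sets, by 0.40 ± 0.12 and Cebpa by −0.54 ± 0.16 (SE, limma adjusted p-values of 0.0675, 0.163 and 0.172). Cebpa, a hepatocyte differentiation factor, was below 0 at all 5 of its probe sets, which are the 5 lower ones just counted. The 3 probe sets of Hnf4a, the main hepatocyte activator of apolipoprotein genes, differed by 0.05, 0.17 and 0.07, with limma adjusted p-values of 0.927, 0.715 and 0.798.

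Other bright secreted proteins of the liver, 18 probe sets for 15 genes such as albumin (Alb), transthyretin (Ttr) and fibrinogen, gave the call for Fga and no other, with a median of −0.00 beside −0.01 for the members. Haptoglobin (Hp), at one rank on all 4 control arrays, differed by 0.09 ± 0.04, the heme-binding Hpx by −0.10 ± 0.05 and Alb, which was above 0 at both its probe sets, by 0.14 ± 0.07 (SE, limma adjusted p-values of 0.426, 0.417 and 0.437).

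**Figure D5:**
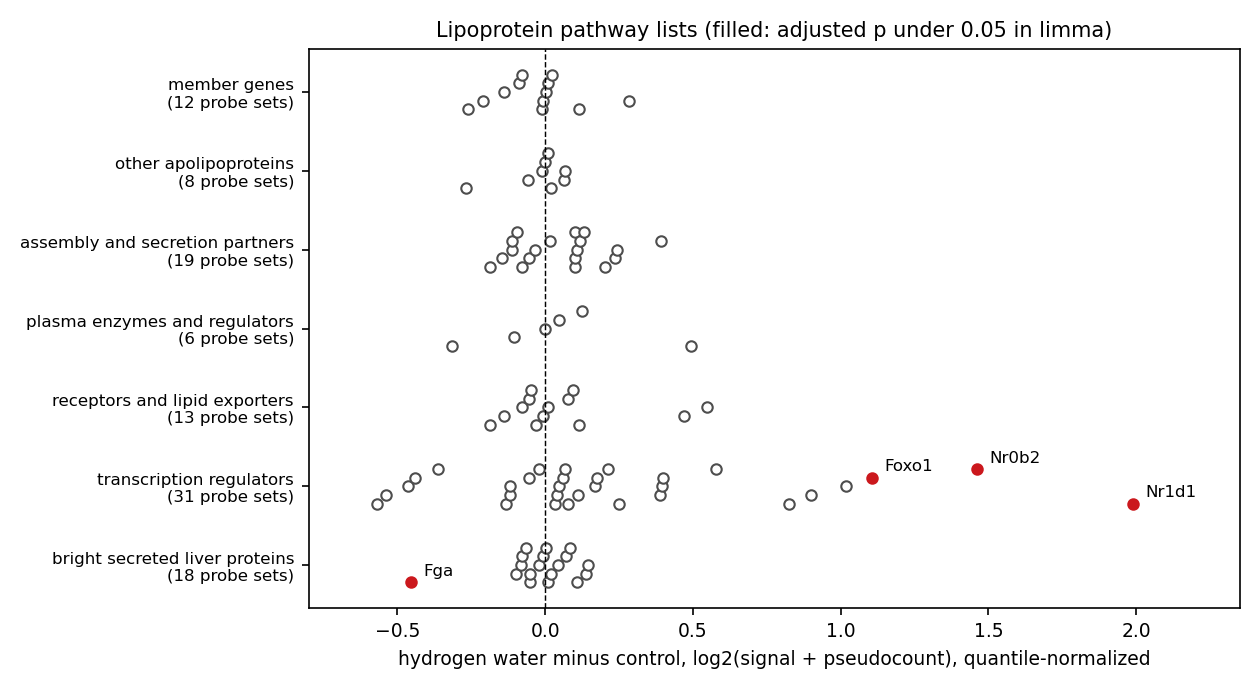
Hydrogen water minus control on the log2(signal + pseudocount) scale after quantile normalization for every tested probe set of the members and of 6 lists of related genes (rows), with those past an adjusted p of 0.05 in limma filled and named. Members lie between −0.26 and 0.28, and the 4 named points are Nr1d1, Nr0b2, Foxo1 and Fga.

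The member probe set that varied most over the 8 arrays was the dimmer one of Apob. Among 12220 other tested probe sets with 1 symbol, those of Tnpo3, Ppp1r21, Hnrnpul1, Mef2a and Arpc3 had the log2 signals most like it, with Pearson's r over the 8 arrays of 0.96, 0.95, 0.95, 0.94 and 0.94. The points share arrays and normalization, and the values are a description. None of these 5 genes passed, with limma adjusted p-values of 0.586 to 0.893.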

How the data were processed

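Biotin-labelled cRNA from total liver RNA was hybridized to Affymetrix arrays, 1 per sample, per the labels' protocols. The deposited values are intensities on a linear scale that the authors made with MAS5, per the submitters' processing notes. The sources used here do not give its version, scaling target or detection calls, so low signals were set apart from background only by a filter.

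Values were quantile-normalized after 57 control probe sets were removed, 2.05 was added as a pseudocount (10% of the overall median signal, 20.5), log2 was taken, and the 15521 of 31042 probe sets with a mean at or above the median were kept. Hydrogen water was compared with control in limma 3.58.1 (lmFit, then eBayes with a mean-variance trend; R 4.3.3) over all tested probe sets. The replicate numbers were taken as names only. Symbols came from the platform annotation and matched the RefSeq table of GRCr8 by Entrez ID for 12 of 12 member probe sets. Array precision is limited by their number.

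Members, lists and tests were chosen with earlier results of these data known. The text names all member probe sets. From each list of related genes it names those that passed, up to 3 others in order of p, and, chosen after their values were seen, P4hb, Hnf4a, Apoc2, Gc and the second probe sets of named genes. It also names the 5 genes most like the member probe set with the largest SD. The response to array brightness and its alternatives were chosen after seeing the data. The alternatives were other normalizations, pseudocounts, filters and priors, array weights, a replicate block, gene means, a brightness covariate and leaving out each array. The limma step was tested on simulated data.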

Additional observations from a re-analysis of the deposited data

Results flagged for a closer look

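In the groups of 4 arrays, 24 for the 12 member probe sets, 1 value stood far from the other 3: Mttp on control array 1, at a normalized log2 signal of 10.67, 0.18 above the next control, a gap that is 0.874 of the range of the group. Chance alone sets apart about 5% of such groups.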

How the results depend on the processing

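No member probe set passed in limma under any of the 22 settings, and 36 of 260 fits had the other sign. Without normalization the changes of Apoa4, Apoc3, Apoh, Apoe and its dimmer probe set were −0.23, −0.21, −0.22, −0.11 and −0.0028. With median centring Apoa2 and Apoc1 were 0.037 and 0.042, and with cyclic loess 0.0021 and 0.0048. With trimmed mean scaling Apoa1, Apoa2 and Apoc1 were 0.028, 0.10 and 0.11. With spike-in scaling Apoa1, Apoa2, Apob and Apoc1 were 0.093, 0.17, 0.060 and 0.17. With array weights Apoa4, Apoc1 and Apoh were −0.0054, 0.0039 and −0.0011, and with brightness as a covariate Apoa2, Apoa4 and Apoc1 were 0.066, −0.21 and 0.035. Leaving out 1 array gave −0.046 to 0.020 for Apoa2, −0.094 to 0.11 for Apoa4, −0.033 to 0.023 for Apoc1, −0.0061 to 0.023 for Apoc3 and −0.012 to 0.017 for Apoh. The causes were not tested.

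Over all probe sets 128 passed, 505 with no normalization, 64 with no trend in the prior, 12 with brightness as a covariate, 63 of 7109 genes with gene means (fewer tested), and 55 (without hydrogen water array 3) to 197 (without control array 3) when 1 array was left out. The share of calls that were higher was 53.9%, and 4.16% without normalization, 29.4% with median centring, 70.8% with spike-in scaling and 16.7% with the covariate. Of the pathway lists 3 probe sets passed, 6 without normalization, 1 with the 75% filter, without a trend or with the covariate, 0 genes with gene means, and 1 to 4 when 1 array was left out, with 1 in each fit but those without control array 3 or hydrogen water array 2. With the replicate block 181 passed, 0 of them members. Same-numbered arrays correlated in their deviations at −0.10, 0.04, 0.19 and −0.00, and 2 of 8 arrays correlated best with their own number. These values show no pairing by number, and so few arrays cannot exclude one. The small number of arrays and the weaker response of the brightest signals limit what a missed threshold can show.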
